A study of Mus musculus with 9 samples.

Results

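The collagen chain genes of the mouse retina were described as a family in 9 mice. The members were the rows of the count table that are marked as protein coding and whose symbol has the form Col, a number, the letter a, and a number, and 44 of the 54532 genes in the table met this rule. They were divided by the kind of assembly that each chain forms into 8 classes, namely basement membrane chains (8 genes), vitreous fibril chains (6), other fibrillar chains (8), type VI chains (6), other fibril-associated chains (6), transmembrane chains (4), other network or anchoring chains (4), and 2 genes left without a class. Of the 44, 43 had enough counts to be tested, and Col6a5 did not.

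RNA was sequenced in bulk from retinas taken at P17 from wild-type mice of the C57BL/6 strain, in 3 groups of 3. Control mice were not exposed to oxygen-induced retinopathy (OIR), a model in which high oxygen halts vessel growth in pups and the return to room air at P12 leaves the retina ischemic, after which new vessels grow. OIR mice received vehicle (DMSO) in the eye at P12. Treated OIR mice received a single intraocular injection of 32-134D, which blocks HIF-1 and HIF-2 (hypoxia-inducible factors), at P12. The labels give DMSO for control mice too, and they give the amount of 32-134D as 70 ng, while the protocol text gives 70 ng/µl. Mice are named by the numbers of their labels, which are 1, 6, and 7 in control, 3, 5, and 6 in OIR, and 2, 5, and 10 in treated OIR mice. These name separate animals and pair no mice across groups.

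Collagens are secreted or membrane-bound proteins whose chains wind into helical trimers, and the trimers then assemble into fibrils, networks, or filaments. Type IV chains form the sheet-like network of basement membranes, which in the eye line retinal vessels, the inner limiting membrane at the vitreous, Bruch's membrane, and the lens capsule. The vitreous gel is held by thin fibrils of type II collagen with a core of type V and XI chains and with type IX collagen on their surface, while the sclera, the cornea, and the walls of larger vessels are rich in type I and III fibrils. New vessels lay down basement membrane as they grow, and several enzymes that modify collagen are known HIF targets. These points are background and not results of these data.

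The type IV chain genes lie in head-to-head pairs, with starts that face away from each other. On GRCm38, Col4a1 (chromosome 8, 11198423 to 11312826, minus strand) and Col4a2 (11312805 to 11449287, plus strand) overlap by 22 bases, Col4a4 (chromosome 1, 82448423 to 82586849, minus strand) and Col4a3 (82586921 to 82722059, plus strand) are 71 bases apart, and Col4a6 (chromosome X, 141165403 to 141474076, minus strand) and Col4a5 (141475385 to 141689234, plus strand) are 1308 bases apart. The spacer between Col4a4 and Col4a3 is shown, while Col4a1 and Col4a2 overlap and have none. The levels of Col4a3 and Col4a4 stayed near each other in all 9 mice, and so did those of Col4a1 and Col4a2. The other 3 sequences are the sites in type IV promoters that hold the core letters of the HIF binding motif. The motif was searched as ACGTG and GCGTG on both strands, and capitals mark the match, which reads CACGT or CACGC where it lies on the minus strand. The sequences come from RefSeq promoters of GRCm38.p6 and are written 5′ to 3′ on the plus strand.
Col4a4 and Col4a3 spacer, chr1:82586850-82586920: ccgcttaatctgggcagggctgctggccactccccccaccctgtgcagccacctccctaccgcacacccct
Col4a4 site, chr1:82586919-82586943: ctaaattcctCACGTtgacctgcac
Col4a1 site, chr8:11312983-11313007: accagcaaggCACGCcggggccgag
Col4a2 site, chr8:11312690-11312714: gagggcccggGCGTGagccctgctc
The Col4a4 site spans the annotated start of Col4a3, the Col4a1 site lies within the Col4a2 gene, and the Col4a2 site lies within the Col4a1 gene. Promoter entries, which run from 250 bases before to 50 after a start, were found for 35 of 44 members, and 13 of these 35 held the motif in at least 1 entry. It was present in 34.2% of the 38 entries of collagen genes and in 43.8% of all 32851 promoter entries. Of the 7 basement membrane genes with an entry, 3 held it. A match in these letters is a description of the sequence and not a binding site.

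Total counts ranged from 16028731 to 27213184 per mouse, and collagen genes held 0.0659% to 0.240% of them. Photoreceptor markers were high in all 9 mice, with 36838 to 68791 CPM summed over 9 genes, and none of the 9 was at 0 in any mouse. Judged from X- and Y-linked counts, 4 mice were female (control 1, OIR 3, and 2 and 5 of the treated OIR group). Some mice stood apart in ways that touch the collagen genes. Treated OIR mouse 2 held 129099 CPM summed over 14 lens markers, against 14.1 to 1003 CPM in the other 8 mice. Control mouse 1 held the most type I collagen, and control mouse 7 had the lowest summed level of collagen genes. The gene models of 18 of 44 members overlap a gene on the opposite strand, among them Col4a1, Col4a2, Col4a3, Col9a3, and Col18a1, and whether the counting used strand is not given in the sources used here, so reads in those overlaps could belong to either gene.

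Levels are given as CPM after TMM scaling, divided by the gene length in kilobases (CPM per kb), so that genes can be compared. Summed over all 44 genes, the level was 311, 228, and 114 in control, 245, 262, and 270 in OIR, and 398, 262, and 271 in treated OIR mice, in the order of mice given above, which all values below follow. Control mice spread from below all OIR and treated OIR mice to above all but treated OIR mouse 2. In control mice the highest mean levels were those of Col9a1 (29.1 ± 17.0 CPM per kb, SD, n = 3), Col1a1 (27.7 ± 40.5), Col23a1 (17.4 ± 4.61), Col18a1, Col4a2 (14.99 ± 3.06), and Col4a1 (14.5 ± 4.50), and these neighbors did not differ beyond their spread. The basement membrane class made up 18.3%, 27.3%, and 29.9% of the summed level in control, 42.5%, 32.6%, and 26.5% in OIR, and 62.5%, 42.2%, and 40.6% in treated OIR mice. The treated OIR group did not overlap the control group in this share, while OIR mouse 6 lay among the control mice.

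**Figure D1:**
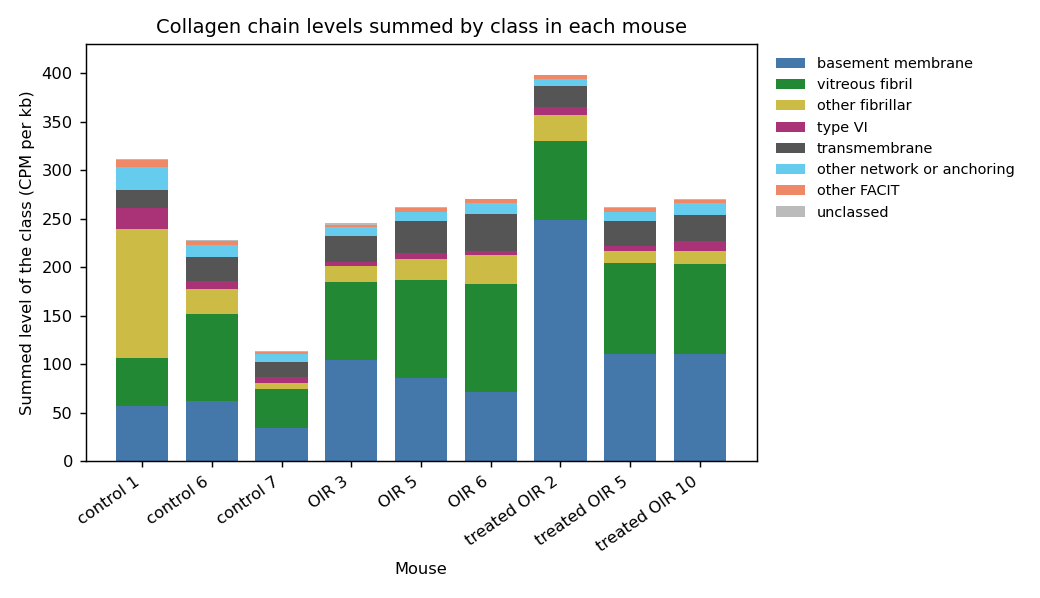
Summed level of each collagen class (y axis, CPM per kb) in each of the 9 mice (x axis, group and replicate number), stacked by class. The basement membrane sum was 34.1 to 62.1 for control, 71.7 to 104 for OIR, and 110 to 249 for treated OIR mice, and control mouse 1 carried 133 of other fibrillar chains against 6.10 to 30.02 in the other 8.

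OIR mice were compared with control mice to ask which chains differed after ischemia. Col2a1, the main fibril chain of vitreous and cartilage, rose, and it was the 1 collagen gene called in either direction. By class, basement membrane and vitreous chains lay mostly above control and other fibrillar and type VI chains mostly below, but apart from Col2a1 no chain of these classes passed the test. In edgeR's quasi-likelihood fit over 17540 genes (Benjamini-Hochberg, adjusted p below 0.05), 1 of 43 members was called higher, where 0.433% of all genes were, and 0 were called lower, where 0.507% of all genes were. At an unadjusted p below 0.05, 4 members were higher (11.1% of all genes) and 5 lower (12.7%), shares that are near or below those of all genes. DESeq2 on the 2 groups called 3 higher and 4 lower, where it called 5.99% and 10.6% of all genes.

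Col2a1 (ENSMUSG00000022483, chromosome 15, 97975602 to 98004695) had levels of 7.08, 9.44, and 5.98 CPM per kb in control, 17.1, 18.9, and 17.6 in OIR, and 23.0, 18.3, and 19.6 in treated OIR mice. Every OIR and treated OIR mouse lay above every control mouse, and the OIR mice differed little among themselves (17.9 ± 0.926, SD, n = 3). The log2 fold change between OIR and control mice was 1.25 (SE 0.17, edgeR adjusted p = 0.0407). The value held its size when single mice were left out, from 1.12 without control mouse 7 to 1.45 without control mouse 6, but the call was lost in 7 of these 9 fits (edgeR adjusted p from 0.0760 to 0.163). Those 7 left out control mice 1, 6, or 7, OIR mice 3, 5, or 6, or treated OIR mouse 5, and edgeR then called no gene of any kind. With sex as a covariate the log2 fold change was 1.25 with an edgeR adjusted p of 0.0722, and there too no gene was called.

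The 6 vitreous fibril chains had a median log2 fold change of 0.50 between OIR and control mice, with 4 above 0 and 2 below, and 0.89 without control mouse 6. Apart from Col2a1 all of them overlapped between the groups. Col9a1, a chain of the type IX collagen that coats vitreous fibrils, had levels of 18.5, 48.7, and 20.0 CPM per kb in control, 37.1, 48.1, and 57.0 in OIR, and 32.6, 48.3, and 47.9 in treated OIR mice. Its partner Col9a2 had 6.13, 16.9, and 6.94 in control, 13.3, 20.0, and 20.6 in OIR, and 12.5, 13.2, and 11.5 in treated OIR mice. Col9a3, the third chain of the trimer, had 11.4, 12.8, and 6.71 in control, 11.7, 12.9, and 13.3 in OIR, and 10.4, 13.1, and 13.1 in treated OIR mice. Control mouse 6 lay with the OIR mice for all 3 type IX chains, while control mice 1 and 7 were low for Col9a1 and Col9a2. Between OIR and control mice the log2 fold change was 0.71 for Col9a1, 0.85 for Col9a2, and 0.29 for Col9a3, with edgeR adjusted p of 0.269, 0.187, and 0.436. Without control mouse 6 they were 1.301, 1.46, and 0.48.

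Opticin (Optc), a vitreous protein made by the ciliary epithelium and chosen after its values were seen, varied with Col9a1 and Col9a2 among the control mice, at 8.77, 175, and 11.0 CPM, and was 40.0, 103, and 77.7 in OIR and 64.0, 84.4, and 116 in treated OIR mice. Opticin is 1 of 4 markers of ciliary body and iris margin, and the other 3 summed to 12.1, 39.3, and 8.77 CPM in control, 22.3, 47.8, and 44.1 in OIR, and 39.4, 28.2, and 33.97 in treated OIR mice, with 1 of them at 0 in control mouse 7. The part of ciliary tissue in the type IX levels was not tested. In bulk tissue, fewer cells of a type and less RNA per cell cannot be told apart. The core chains of the vitreous fibril were low. Col11a1 reached at most 1.43 CPM per kb and Col5a2 at most 4.30, both in control mouse 1, and in OIR mice Col11a1 was 0.306, 0.790, and 0.826 and Col5a2 was 0.964, 0.846, and 1.24. Both overlapped between the groups.

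**Figure D2:**
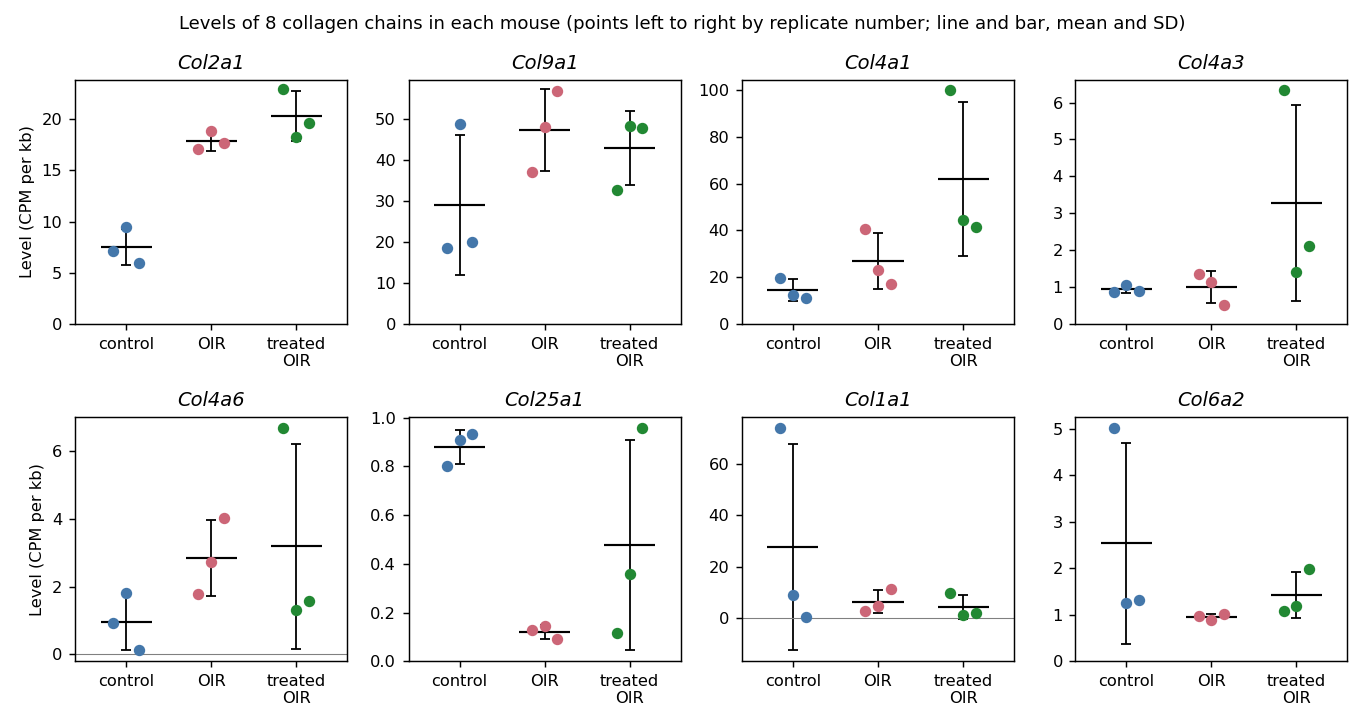
Level (y axis, CPM per kb, own linear scale in each panel) of 8 collagen chains in the 3 groups (x axis), with a point for each mouse and a line and bar for the mean and SD of 3 mice. Col2a1 was above the control range in all OIR and treated OIR mice, Col25a1 was below it in all OIR mice, and treated OIR mouse 2 was the highest point for Col4a1, Col4a3, and Col4a6.

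The 8 basement membrane chains had a median log2 fold change of 0.69 between OIR and control mice, where the median over all genes tested was 0.03. Of these, 7 were above 0 and 1 below, and 0 were called by edgeR, 0 at an unadjusted p below 0.05, and 0 by DESeq2. The median was 0.33 without OIR mouse 3. Col4a1, one of the paired chains found in nearly every basement membrane, had levels of 19.7, 12.6, and 11.3 CPM per kb in control and 40.5, 23.0, and 17.3 in OIR mice. Its partner Col4a2 had 18.5, 13.02, and 13.4 in control and 35.3, 21.4, and 13.002 in OIR mice. OIR mouse 3 was the highest OIR mouse for both, while OIR mouse 6 lay within the control range for Col4a1 and at its lower end for Col4a2. OIR against control gave log2 fold changes of 0.89 for Col4a1 (SE 0.42, edgeR adjusted p = 0.233) and 0.63 for Col4a2 (SE 0.45, edgeR adjusted p = 0.431), and without OIR mouse 3 they were 0.47 and 0.20. Lens markers were also highest in OIR mouse 3 among OIR mice, with a sum of 1003 CPM against 275 and 56.8 in the other two, while control mice had 276, 178, and 22.4. The lens capsule is rich in type IV collagen, and the part of lens material in these levels was not tested.

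Col4a3 and Col4a4, chains of the specialized network known from the kidney glomerulus, were low, and OIR mice lay on both sides of control mice. Col4a3 had 0.879, 1.06, and 0.906 CPM per kb in control and 1.37, 1.14, and 0.515 in OIR mice, and Col4a4 had 1.06, 1.195, and 1.06 in control and 1.46, 1.14, and 0.623 in OIR mice. Their log2 fold changes were 0.08 and -0.04, with 95% intervals of -1.13 to 1.297 and -1.21 to 1.13, which still hold a 2-fold change in either direction. The X-linked pair spread more widely in control mice. Col4a5 had 2.46, 4.58, and 1.11 CPM per kb in control and 3.78, 5.40, and 8.44 in OIR mice. Col4a6, which shares trimers with it, had 0.915, 1.82, and 0.146 in control and 1.78, 2.71, and 4.03 in OIR mice. Their log2 fold changes of 1.11 and 1.55 did not pass the test (edgeR adjusted p = 0.305 and 0.290). They were 0.75 and 1.06 without control mouse 7, and 1.70 and 2.38 without control mouse 6.

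Col18a1, which carries endostatin at its end and is found in the inner limiting membrane, had 11.8, 27.3, and 5.91 CPM per kb in control, 18.8, 30.03, and 26.9 in OIR, and 25.3, 22.8, and 26.2 in treated OIR mice. Like the type IX chains it was high in control mouse 6. Its log2 fold change between OIR and control mice was 0.75 (SE 0.45, edgeR adjusted p = 0.340), and 1.51 without control mouse 6. Its relative Col15a1 was low, at 1.73, 0.523, and 0.234 in control, 1.24, 0.683, and 0.879 in OIR, and 1.47, 0.898, and 2.02 in treated OIR mice, with overlap of all groups.

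The 8 other fibrillar chains had a median log2 fold change of -0.83 between OIR and control mice, with 7 below 0, 1 above, and 0 called by edgeR, 0 at an unadjusted p below 0.05, and 0 by DESeq2. Without control mouse 1 the median turned to 0.30. Col1a1, the main chain of type I collagen in sclera and cornea, had 74.2, 8.67, and 0.187 CPM per kb in control mice 1, 6, and 7, a 397-fold range within 1 group, then 2.62, 4.72, and 11.4 in OIR and 9.63, 1.05, and 1.78 in treated OIR mice. Col1a2, its partner, had 29.0, 6.62, and 0.680 in control, 2.57, 4.41, and 8.15 in OIR, and 3.80, 1.58, and 1.79 in treated OIR mice. Col3a1, of the thin fibrils in vessel walls, had 13.4, 2.95, and 0.670 in control, 1.88, 1.90, and 2.25 in OIR, and 3.22, 1.52, and 1.53 in treated OIR mice. For all 3 genes, control mouse 1 lay above and control mouse 7 below every other mouse. The other members of the class were Col5a1, Col5a3, Col11a2, Col24a1, and Col27a1, of which Col5a3, named after its value was seen, was the 1 above 0.

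OIR against control gave log2 fold changes of -2.15 for Col1a1 (SE 1.47), -1.26 for Col1a2 (SE 0.99), and -1.50 for Col3a1 (SE 0.82), with edgeR adjusted p of 0.406, 0.471, and 0.299. Without control mouse 1 their sign turned, to 0.49, 0.46, and 0.15. Biglycan (Bgn), a proteoglycan of fibrous tissue chosen after its values were seen, varied with them among control mice, at 132, 36.5, and 8.12 CPM, and the 6 markers of sclera and choroid other than Thy1 summed to 84.02, 110, and 32.7 in control, 94.9, 124, and 133 in OIR, and 143, 88.8, and 76.3 in treated OIR mice. At most 1 of these 6 was at 0 in any mouse. The part of adherent fibrous tissue in the type I and III levels was not tested.

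Type VI chains, which form beaded filaments around cells and between fibrils, lay below control in OIR mice for all 5 genes tested (median log2 fold change -1.41), with 0 called by edgeR, 3 lower at an unadjusted p below 0.05, and 2 lower by DESeq2. The median was -0.53 without control mouse 1. Col6a1 had 13.7, 6.14, and 4.47 CPM per kb in control and 3.02, 5.25, and 2.77 in OIR mice, and Col6a2 had 5.02, 1.26, and 1.32 in control and 0.970, 0.885, and 1.02 in OIR mice. All OIR mice lay below all control mice for Col6a2, and OIR mouse 5 overlapped with control mice for Col6a1. Their log2 fold changes were -1.14 (SE 0.46, edgeR adjusted p = 0.175) and -1.41 (SE 0.51, edgeR adjusted p = 0.146), and -0.53 and -0.43 without control mouse 1, which was the highest. DESeq2 on the 2 groups called both, with adjusted p of 0.0156 and 0.0128.

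Of the other type VI chains, Col6a3 had 3.37, 0.476, and 0.0323 CPM per kb in control, 0.527, 0.464, and 0.455 in OIR, and 3.29, 0.400, and 0.533 in treated OIR mice, so that control mouse 1 and treated OIR mouse 2 stood far above the other 7. Col6a4 was near the lower end of detection, at 0.172, 0.163, and 0.242 in control, 0.138, 0.142, and 0.0475 in OIR, and 0.0223, 0.151, and 0.392 in treated OIR mice. Col6a6 had 3, 17, and 8 counts in control, 0 in each OIR mouse, and 0, 9, and 12 in treated OIR mice. With each OIR mouse set to a floor of 3 counts, Col6a6 was 3.36-fold lower in OIR mice than the mean of control mice. This takes the few control counts as exact, and control mouse 1 was itself at the floor. The class median stayed at -1.41 when Col6a6 was set to this value. The untested Col6a5 had 5, 10, and 5 counts in control, 0, 1, and 0 in OIR, and 0, 0, and 13 in treated OIR mice.

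**Figure D3:**
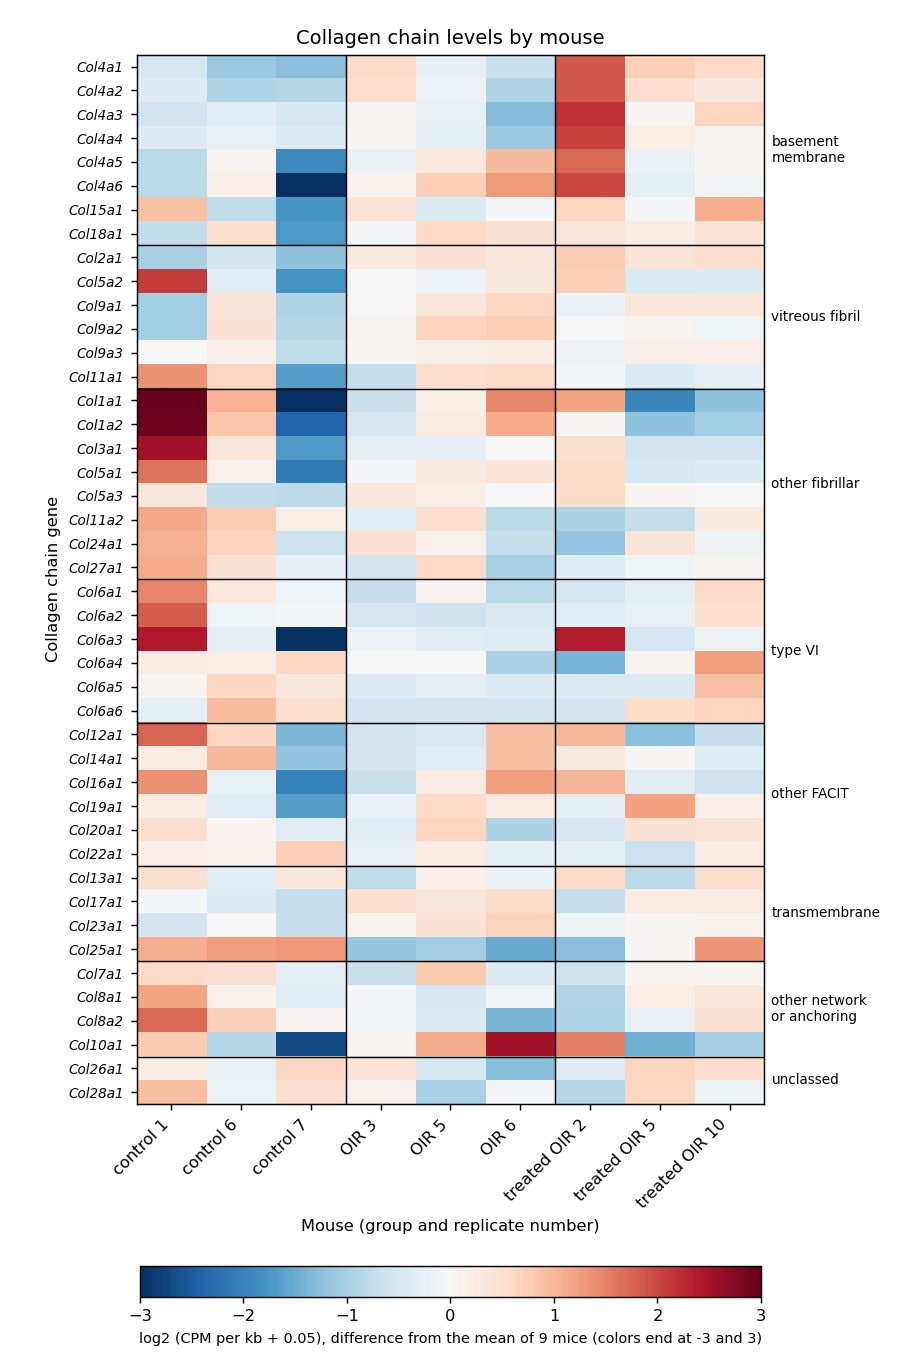
Level of each of the 44 collagen chain genes (rows, ordered by class) in each of the 9 mice (columns), as log2 of CPM per kb plus 0.05, shown as the difference from the mean of the 9 mice, with red above and blue below. Type IV chains were highest in treated OIR mouse 2, type I and III chains were highest in control mouse 1 and lowest in control mouse 7, and Col25a1 was low in the 3 OIR mice.

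The transmembrane chains, which stay in the plasma membrane with their collagen part outside, had a median log2 fold change of 0.10 between OIR and control mice, with 2 above 0 and 2 below (Col25a1 and Col13a1 lay below), 0 called by edgeR, and 2 higher and 1 lower at an unadjusted p below 0.05. Col25a1, a chain made by neurons, had 0.801, 0.907, and 0.931 CPM per kb in control, 0.128, 0.144, and 0.0903 in OIR, and 0.118, 0.360, and 0.957 in treated OIR mice. The 3 OIR mice, with 31, 40, and 26 counts, lay far below the 3 control mice, with 297, 237, and 187. The treated OIR mice covered the whole range, from the OIR level in mouse 2 to the control level in mouse 10. The log2 fold change between OIR and control mice was -2.86 (SE 0.63), the lowest of the members with counts in every group, and it did not pass in the edgeR fit over all mice (adjusted p = 0.0609). The value stayed between -3.01 and -2.69 when single mice were left out, and it passed without treated OIR mouse 2 (edgeR adjusted p = 0.00386) or 10 (0.0386) and failed in the other 7 fits (0.0997 to 0.208). Of 10 other settings, 6 passed the test, among them edgeR on the 2 groups (adjusted p = 0.00586) and DESeq2 on the 2 groups (7.44e-19). The 6 include the fit without control mouse 1 and treated OIR mouse 2 together (edgeR adjusted p = 0.00645), which was chosen after seeing the data. The other 4 settings did not pass, with the highest edgeR adjusted p of 0.0888 with sex as a covariate. Thy1, chosen after its values were seen and known from retinal ganglion cells as well as from fibroblasts, was 347, 341, and 494 CPM in control, 130, 81.6, and 34.1 in OIR, and 12.5, 228, and 249 in treated OIR mice, and thus lowest in the same 4 mice as Col25a1. In treated OIR mouse 10, Col25a1 was at the control level while Thy1 lay below every control mouse. Thy1 is 1 of 7 listed markers of sclera and choroid. The other 6 were not lower in OIR mice, with sums of 94.9, 124, and 133 CPM against 84.02, 110, and 32.7 in control mice. What Thy1 and Col25a1 share was not tested.

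Col23a1, another transmembrane chain, had 15.5, 22.6, and 14.0 CPM per kb in control, 24.3, 30.7, and 35.8 in OIR, and 20.5, 23.3, and 24.4 in treated OIR mice. Col17a1, known from the anchoring complexes of epithelia, had 1.60, 1.25, and 0.984 in control, 2.32, 2.09, and 2.42 in OIR, and 1.001, 1.91, and 1.94 in treated OIR mice. OIR mice lay above control mice for both without overlap. The log2 fold changes between OIR and control mice were 0.80 for Col23a1 (SE 0.20, edgeR adjusted p = 0.0728) and 0.83 for Col17a1 (SE 0.28, edgeR adjusted p = 0.126), and DESeq2 on the 2 groups called both, with adjusted p of 0.00167 and 0.0111.

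Col8a2, a chain of the network in the corneal Descemet's membrane, had 10.2, 5.05, and 3.30 CPM per kb in control, 3.07, 2.39, and 1.17 in OIR, and 1.65, 2.69, and 4.35 in treated OIR mice. The 4 other network or anchoring chains (Col8a2, Col8a1, Col7a1, and Col10a1) had a median log2 fold change of -0.48, with 1 above 0 and 3 below. Col8a2 lay below control in all OIR mice, with a log2 fold change of -1.49 (SE 0.51, edgeR adjusted p = 0.129) and -0.92 without control mouse 1, and DESeq2 on the 2 groups gave an adjusted p of 0.00261. In all, 3 members (Col2a1, Col23a1, and Col17a1) were higher in OIR than in control mice without overlap of the groups, where 15.9% of all genes were, and 5 (Col8a2, Col6a2, Col25a1, Col6a4, and Col6a6) were lower, where 17.2% were. Of the 6 other fibril-associated chains (Col12a1, Col14a1, Col16a1, Col19a1, Col20a1, and Col22a1), whose levels ran from 0.0267 to 2.38 CPM per kb over all mice, 2 lay above and 4 below control, and the 2 unclassed genes (Col26a1 and Col28a1) lay below, with 0 called by edgeR, 0 at an unadjusted p below 0.05, and 0 by DESeq2.

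**Figure D4:**
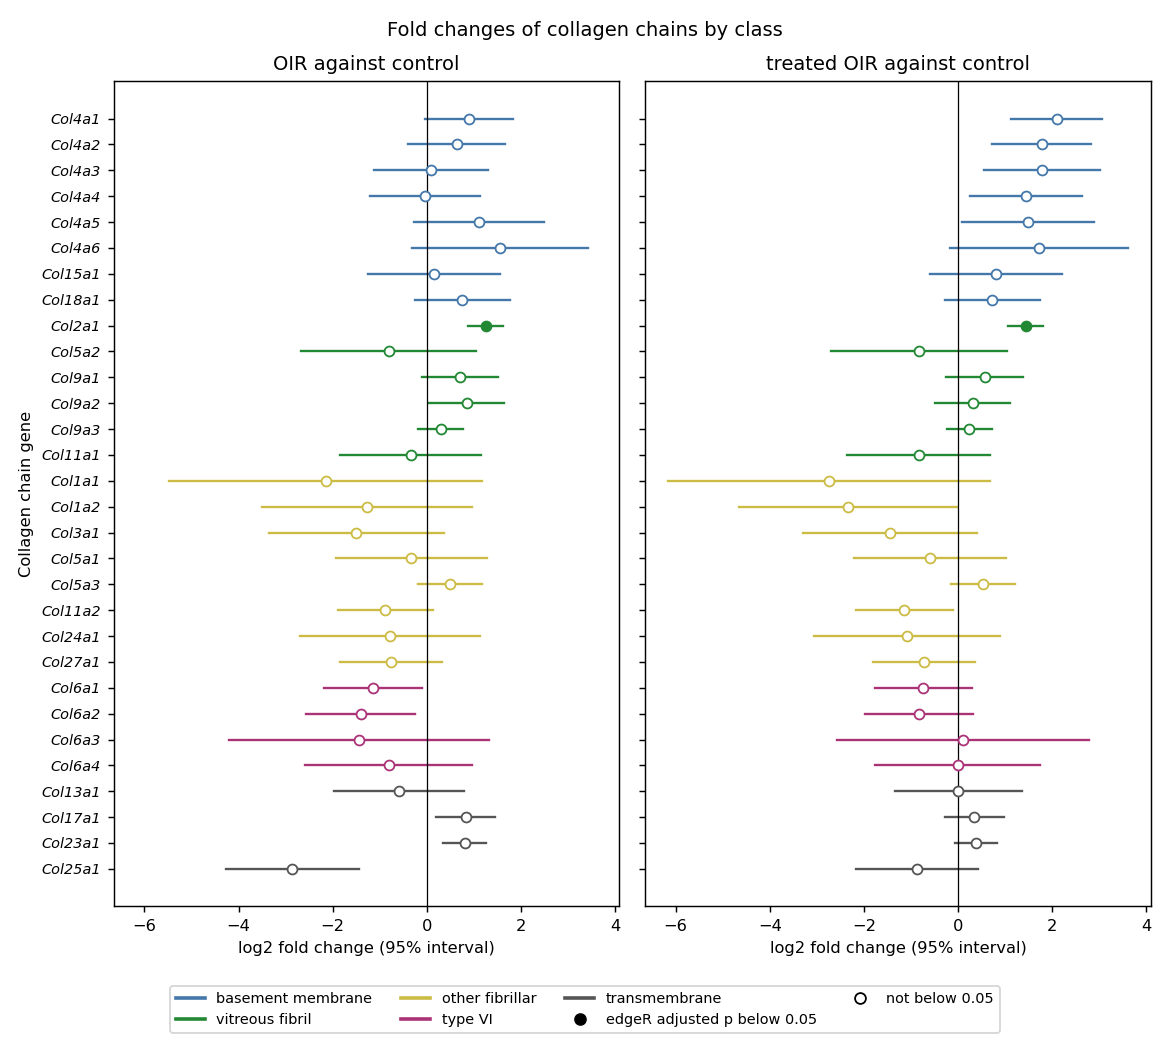
Log2 fold change with its 95% interval (x axis) of 30 collagen chains (y axis) in OIR and in treated OIR mice, each against the same 3 control mice, from edgeR's fit of all 9 mice. Filled points have an edgeR adjusted p below 0.05, which held for Col2a1 in both panels. The type IV chains lay between 1.45 and 2.09 in treated OIR mice, and between 0.50 and 1.56 without treated OIR mouse 2, a fit that is not drawn.

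Treated OIR mice were compared with the same control mice, so the 2 comparisons share their controls. Col2a1 rose here too and was again the 1 collagen gene called, with a log2 fold change of 1.43 (SE 0.17, edgeR adjusted p = 0.0490), where edgeR called 0.0114% of all genes higher. No member was called lower, where 0.0114% of all genes were, and at an unadjusted p below 0.05 there were 6 members higher (10% of all genes) and 2 lower (8.6%). The call of Col2a1 was lost when any 1 of the 9 mice was left out (edgeR adjusted p from 0.0518 without control mouse 6 to 0.230 without control mouse 7), with log2 fold changes of 1.299 to 1.63, and it was also lost in edgeR on the 2 groups (adjusted p = 0.246), with scaling by total counts (0.0689), and with sex as a covariate (0.208). DESeq2 on the 2 groups called 4 members higher, namely Col2a1, Col4a1, Col4a2, and Col4a3, and 0 lower, where it called 1.28% and 1.29% of all genes. Col2a1, Col4a1, Col4a2, Col4a3, and Col4a4 were higher than in control mice without overlap, 5 members where 12.8% of all genes were, and 0 members were lower, where 12.2% were.

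Against control, the basement membrane chains of treated OIR mice had a median log2 fold change of 1.60 with 8 of 8 above 0, where the median over all genes was 0.01, and a median of 0.75 without treated OIR mouse 2. Of the 8, 0 were called by edgeR, 5 were higher at an unadjusted p below 0.05, and DESeq2 called the 3 named above. Col4a1 had 99.8, 44.6, and 41.4 CPM per kb in treated OIR mice 2, 5, and 10, and Col4a2 had 89.0, 34.2, and 30.6. Mouse 2 was the highest for both, and mice 5 and 10 also lay above every control mouse and, for Col4a1, above every OIR mouse. The log2 fold changes against control were 2.09 for Col4a1 (SE 0.43, edgeR adjusted p = 0.102) and 1.77 for Col4a2 (SE 0.47, edgeR adjusted p = 0.141), with DESeq2 adjusted p on the 2 groups of 2.1e-05 and 0.00223. Without treated OIR mouse 2 they were 1.56 and 1.12.

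The rarer type IV chains depended more on mouse 2. Col4a3 had 6.33, 1.40, and 2.11 CPM per kb in treated OIR mice 2, 5, and 10, Col4a4 had 5.92, 1.62, and 1.49, Col4a5 had 14.5, 3.78, and 4.56, and Col4a6 had 6.66, 1.32, and 1.56. The log2 fold changes against control fell from 1.79 to 0.90 for Col4a3, from 1.45 to 0.50 for Col4a4, from 1.48 to 0.62 for Col4a5, and from 1.71 to 0.58 for Col4a6 when mouse 2 was left out, and the class median fell from 1.60 to 0.75. No type IV chain was called by edgeR in either fit. Mouse 2 was the mouse with 129099 CPM of lens markers, of which none of 14 was at 0, while mice 5 and 10 had 477 and 14.1, with 2 of 14 at 0 in mouse 10. The part of lens material in these levels was not tested.

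The medians of the other classes were lower than that of the basement membrane chains. The median log2 fold change was 0.28 for vitreous fibril chains, where Col9a1, Col9a2, and Col9a3 were at 0.56, 0.31, and 0.24 (edgeR adjusted p = 0.420, 0.653, and 0.563). It was -1.12 for other fibrillar chains, with values of -2.74, -2.34, and -1.45 for Col1a1, Col1a2, and Col3a1 that again rested on control mouse 1 and were -0.10, -0.62, and 0.20 without it. The median of the other fibrillar chains was -0.20 without control mouse 1. Type VI chains had a median of -0.26, which is the value of Col6a6 with its few counts, and it was -1.13 without treated OIR mouse 10 and -0.08 without control mouse 1. Col6a1 had 3.36, 3.96, and 7.27 CPM per kb and Col6a2 1.09, 1.19, and 1.99 in treated OIR mice, and their log2 fold changes of -0.74 and -0.83 were -0.13 and 0.14 without control mouse 1. Col25a1 was at -0.87 (SE 0.58, edgeR adjusted p = 0.437), at -1.88 without treated OIR mouse 10 and at -0.41 without treated OIR mouse 2.

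Treated OIR and OIR mice were then compared directly, which asks what differed with the inhibitor. No collagen gene was called, higher or lower, by edgeR (0% of all genes), by DESeq2 on the 2 groups (0.107% of all genes higher and 0.326% lower), or by limma-voom. At an unadjusted p below 0.05 in edgeR, 6 members were higher (2.39% of all genes) and 0 lower (2.3%). These 6 were Col25a1, Col4a1, Col4a2, Col4a3, Col4a4, and Col6a6, the last with 0 counts in all OIR mice and in treated OIR mouse 2. For Col2a1 the log2 fold change was 0.18 with a 95% interval of -0.18 to 0.55, and the 2 groups overlapped. By class, the median log2 fold change was 0.90 for basement membrane chains, 0.80 for type VI chains, -0.10 for vitreous fibril chains, and -0.26 for other fibrillar chains, and 0.05 over all members tested. The basement membrane median was 0.53 without treated OIR mouse 2, and the type VI median was 0.25 without treated OIR mouse 10.

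The log2 fold changes of the type IV chains between treated OIR and OIR mice were 1.201 for Col4a1 (SE 0.42), 1.14 for Col4a2 (SE 0.46), 1.71 for Col4a3 (SE 0.54), and 1.49 for Col4a4 (SE 0.53), with edgeR adjusted p of 0.990 for Col4a1, Col4a3, and Col4a4 and 0.9998 for Col4a2. Without treated OIR mouse 2 these were 0.70, 0.51, 0.84, and 0.56. Col4a5 and Col4a6 were at 0.37 and 0.16, and at -0.47 and -0.95 without mouse 2. Col25a1 was at 1.99 (SE 0.61, edgeR adjusted p = 0.984), with 0.98 without treated OIR mouse 10 and 2.48 without mouse 2. The groups did not overlap for Col4a1, Col4a3, Col4a4, and Col6a2, higher in treated OIR mice, where 3.74% of all genes were, nor for Col9a2 and Col17a1, lower in treated OIR mice, where 5.39% of all genes were. The log2 fold changes of the last 3 were 0.57 for Col6a2, -0.54 for Col9a2, and -0.49 for Col17a1.

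Chains that share a trimer were compared as ratios of their levels per length. The ratio of Col4a1 to Col4a2 was 1.06, 0.968, and 0.844 in control, 1.15, 1.07, and 1.33 in OIR, and 1.12, 1.304, and 1.35 in treated OIR mice, so that every OIR and treated OIR mouse lay above every control mouse. The log2 ratio was 0.31 higher in OIR and 0.40 higher in treated OIR than in control mice, each with a two-sided exact permutation p of 0.1, the smallest that 3 mice against 3 allow, and 0.45 after adjustment over 18 tests. The ratio of Col4a3 to Col4a4 stayed between 0.826 and 1.42 over all mice, and that of Col4a5 to Col4a6 between 1.99 and 2.92 in all but control mouse 7, where it was 7.65 with 18 counts of Col4a6. Every OIR mouse lay below every control and every treated OIR mouse in the ratio of Col4a5 to Col4a6. The exact permutation p of this ratio was also 0.1 in OIR against control and in treated OIR against OIR, each 0.45 after adjustment. The ratio of Col1a1 to Col1a2 went from 0.275 to 2.56, both extremes in control mice, and that of Col6a1 to Col6a2 from 2.72 to 5.93. Col9a1 to Col9a3 ran from 1.63 to 4.27. The smallest p of the 18 exact tests was 0.1.

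Genes that work with collagens were taken from 3 lists. Of 15 laminins, nidogens, and proteoglycans of the basement membrane, 10 lay above and 5 below control in OIR mice (median log2 fold change 0.49), and 12 above and 3 below in treated OIR mice (0.72). Nid1 (nidogen) and Hspg2 (perlecan), which bind the type IV network, were chosen after their values were seen. Nid1 had 23.7, 18.3, and 13.2 CPM in control, 56.3, 30.2, and 24.1 in OIR, and 265, 59.0, and 55.8 in treated OIR mice, and Hspg2 had 41.5, 26.3, and 16.7, then 56.5, 53.2, and 47.9, then 228, 53.3, and 53.9. Treated OIR mouse 2 was the highest for both, as for the type IV chains. Both were above every control mouse in all OIR and treated OIR mice. Of the 15 genes, 7 lay above control without overlap in OIR mice (15.9% of all genes) and 2 below (17.2%). For treated OIR mice the numbers were 6 above (12.8%) and 0 below (12.2%). Lamb3 and Lamc3 were the 2 below in OIR mice, at -2.64 and -1.23. Lamb3 had the largest OIR change of the list and was not called (edgeR adjusted p = 0.0706). Of 13 fibril-associated and vitreous proteins tested, 9 lay above and 4 below in OIR mice (0.34), and 8 above and 5 below in treated OIR mice (0.12). Of 7 collagen-binding integrins and receptors tested, 5 lay above and 2 below in each comparison (0.56 and 0.61). EdgeR called 0 genes of the 3 lists in any comparison. At an unadjusted p below 0.05 there were, in OIR mice, 4 basement membrane genes higher and 1 lower, no fibril-associated gene, and 1 receptor higher, where 11.1% of all genes were higher and 12.7% lower. In treated OIR mice they were 6, 1, and 4 higher in the order of the lists and 0 lower, where 10% of all genes were higher and 8.6% lower.

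Endothelial markers, 9 genes, summed to 242, 263, and 259 CPM in control, 457, 353, and 357 in OIR, and 292, 437, and 442 in treated OIR mice. Kdr, a receptor for vascular growth factor chosen after its values were seen, made up a large share of these sums, with 105, 125, and 101 CPM in control, 224, 206, and 281 in OIR, and 207, 143, and 184 in treated OIR mice. The other 8 genes summed to 137, 138, and 159 CPM in control, 232, 147, and 76.2 in OIR, and 85.3, 294, and 258 in treated OIR mice. Without Kdr, OIR mouse 6 and treated OIR mouse 2 lay below every control mouse. Treated OIR mouse 2 had the highest Col4a1 level, at 99.8 CPM per kb. OIR mice 3, 5, and 6 fell in the same order in this sum and in Col4a1 (40.5, 23.0, and 17.3 CPM per kb). So did treated OIR mice 5 and 10 (44.6 and 41.4). Over the 9 genes the median log2 fold change between OIR and control mice was 0.05, with 6 above 0 and 3 below. Between treated OIR and control mice the median was 0.69, with 9 above 0 and 0 below. Between treated OIR and OIR mice it was 0.56, with 8 above 0 and 1 below. Between OIR and control mice edgeR called Kdr higher (log2 fold change 1.10, edgeR adjusted p = 0.0407), where 0.433% of all genes were, and no other of the 9. It called none of the 9 in the comparisons of treated OIR mice with control or OIR mice. The part of vessel growth in the type IV levels was not tested.

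The genes whose log2 CPM followed Col2a1 most closely over the 9 mice, among 13977 genes with a mean log2 CPM of at least 1, were Wbp1l (Pearson r = 0.99), Zfp397 (0.98), 9530077C05Rik (0.98), Xpnpep3 (0.98), and Intu (0.98). Among collagen genes, Col18a1, Col4a5, and Col4a6 were nearest, each at 0.80, followed by Col4a1 at 0.76, and Col25a1 was the farthest at -0.68. These values describe 9 mice that share groups and scaling, and the 5 genes are the extreme of all those compared.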

How the data were processed

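The authors deposited raw read counts per gene, as whole numbers, with gene position, biotype, and length. CASAVA and HISAT are named in the submitters' processing notes without a version, and the counting tool is not given in the sources used here. Counts of 9 mice were analysed in R 4.3.3 with edgeR 4.0.16 (TMM scaling, filterByExpr, quasi-likelihood test over 17540 of 54532 genes, Benjamini-Hochberg threshold 0.05, all 3 groups in 1 fit). Alternatives were DESeq2 1.42.0, limma 3.58.1 with voom, other scalings and filters, sex as a covariate, fits of 2 groups, and each mouse left out. The edgeR fit and the DESeq2 and limma-voom fits of all mice were tried on simulated counts with the same dispersion for every gene. The other alternatives were not simulated, nor were mice that stand apart as some do here. Chain ratios were compared by exact permutation tests. Coordinates are GRCm38, on which all 44 members have the position of GENCODE M21. Totals of 16028731 to 27213184 counts set the precision, with few counts behind the lowest genes. Members named with values were a set list, those called, and those whose groups did not overlap in OIR against control. Col8a2, Col17a1, Col23a1, Col25a1, Col6a4, and Col6a6 entered by that last rule. The members and lists were chosen with earlier results of these data known.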

Additional observations from a re-analysis of the deposited data

How the results depend on the processing

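The limits were 3 mice a group, 1 control mouse rich in type I collagen, and 1 treated OIR mouse rich in lens RNA. No paired analysis was possible because the replicate numbers name separate animals and pair no mice across groups. Among single genes, 466 values under the other settings kept their direction and side of the threshold, 27 passed the test only there, 5 lost it, and 12 turned in sign. In OIR against control, the collagen genes called higher and lower were 1 and 0 as reported, 3 and 3 with DESeq2 on all mice, 3 and 4 with DESeq2 on 2 groups, 1 and 1 with edgeR on 2 groups, 2 and 1 with no filter, 2 and 2 with limma-voom, 0 and 0 with sex as a covariate, and 5 and 2 without control mouse 1 and treated OIR mouse 2 together, an alternative chosen after seeing the data. Leaving out 1 mouse gave 0 to 3 higher and 0 to 2 lower. Over all genes the calls were 76 higher and 89 lower, 128 and 102 with upper-quartile scaling, and 28 and 9 with total counts, where the median of all genes was 0.0975. In treated OIR against control, 1 was called higher, 4 with DESeq2 on all mice and 4 on 2 groups, 3 with limma-voom, and 0 with edgeR on 2 groups, total counts, sex, or without both mice, and 0 whenever 1 mouse was left out.

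Without both mice, the other fibrillar median in OIR against control was 0.29, with Col1a1 at 0.47, Col1a2 at 0.44, and Col3a1 at 0.13. Likewise, in treated OIR against control the basement membrane median was 0.72, Col6a1 0.0999, and Col6a2 0.32, and in treated OIR against OIR Col4a5 was -0.47 and Col4a6 -0.95. With limma-voom, Col4a3 in OIR against control was -0.0418, and in treated OIR against OIR Col4a5 was -0.32 and Col4a6 -0.78. With total counts Col4a4 in OIR against control was 0.0136 and Col4a6 in treated OIR against OIR was -0.0389. The cause was not tested for any of these.

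With 1 mouse left out, medians in OIR against control ran from -1.26 to 0.30 for other fibrillar and 0.29 to 0.89 for vitreous chains, and in treated OIR against control from 0.0655 to 0.68 for vitreous and 0.75 to 1.90 for basement membrane chains. In OIR against control, Col1a1 ran from -2.91 to 0.49, Col1a2 from -1.82 to 0.46, Col3a1 from -2.02 to 0.15, Col4a3 from -0.20 to 0.40, and Col4a4 from -0.32 to 0.23. In treated OIR against control, Col3a1 ran from -1.97 to 0.20 and Col6a2 from -1.16 to 0.14. In treated OIR against OIR, Col4a5 ran from -0.47 to 0.73 and Col4a6 from -0.95 to 0.53. The log2 ratio of Col4a5 to Col4a6 in treated OIR against control ran from -0.79 to 0.0159. That of Col1a1 to Col1a2 ran from -0.67 to 0.94 in OIR against control, -0.63 to 0.98 in treated OIR against control, and -0.50 to 0.46 in treated OIR against OIR. That of Col6a1 to Col6a2 ran from -0.29 to 0.28, -0.28 to 0.14, and -0.36 to 0.20, and that of Col9a1 to Col9a3 in treated OIR against OIR from -0.19 to 0.0194.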
